A study of Mus musculus with 6 samples.

Results

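The mitogen-activated protein (MAP) kinase cascade and the dual-specificity phosphatases that act on it were followed in the transcripts of immortalised mouse bone marrow-derived macrophages. Members were the protein-coding genes whose GENCODE M21 symbols name a MAP kinase, one of the kinases above it or a DUSP phosphatase. Of the 73 genes with such a symbol the rule left out 1, so 72 of the 54532 genes in the files were members. The rule itself reads symbols, but the family was selected on earlier results for shPGAM5 against shDRP1 (log2 FPKM differences) in the same libraries. The members' values, differences and calls below are therefore a description of these 6 libraries, and no p is given for a member.

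In 3 of the 6 libraries the cells carried a short hairpin RNA that targets Pgam5 (shPGAM5), and in the other 3 one that targets Dnm1l, which encodes DRP1 (shDRP1). Both groups were cultured with 10 ng/ml of interleukin-4 over 24 h. PGAM5 is a protein phosphatase of mitochondria and DRP1 the GTPase that divides them, and the series asked about PGAM5 in anti-inflammatory macrophages. Neither group is an untreated or untargeted control, so a transcript that is higher with shPGAM5 cannot be told apart from one that is lower with shDRP1. The cells are an immortalised line. The labels do not say if libraries 1 to 3 of a group stem from different cultures or different hairpin sequences. Any p-value thus reflects the spread among these libraries alone, part of which may be technical.

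Depth was 16111296 to 21933519 reads per library. Levels are in FPKM, fragments scaled to exon length and library depth, and are given as mean ± SD with n = 3 libraries per group. Pgam5 stood at 4.91, 5.21 and 4.60 FPKM in the shPGAM5 libraries, against 17.3, 17.1 and 17.2 in the shDRP1 libraries. Dnm1l stood at 17.2, 18.7 and 17.7 FPKM with shPGAM5, against 8.18, 7.42 and 7.12 with shDRP1, so each target was lower in its own group. Exons of an opposite-strand gene cover 58.1% of the exonic length of Pgam5. Of 10 macrophage markers 9 were at 1 FPKM or more, while Mertk, a receptor for dying cells, had 0 reads with shPGAM5 and 2 with shDRP1. The summed macrophage markers were at 3776 to 3947 FPKM with shPGAM5 and 4827 to 4871 with shDRP1. Of the 9 markers tested, Lyz2 (1272 FPKM with shPGAM5 and 1954 with shDRP1), Cd68, Csf1r and Fcgr1 were lower at the limma threshold used for all genes, while Adgre1, Spi1, Ptprc, Cd14 and Itgam did not pass, with log2 differences of 0.02, 0.01, -0.03, -0.05 and -0.14. Of 25 markers of other cell types, 14 were at 0 in every library and their summed level was 0.402 to 0.877 FPKM with shPGAM5 and 0.989 to 1.07 with shDRP1. The part of either marker sum in the differences below was not tested, and in bulk RNA fewer cells of a kind and less RNA per cell cannot be told apart. Library 3 of shPGAM5 lay farthest from its group, with a chi-square per gene of 8.06 and 5.61 to its fellow libraries against 2.65 to 3.26 for the other pairs within groups.

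In the cascade, signals from receptors pass from a MAP4K or a small GTPase to a MAP3K, which phosphorylates a MAP2K, which in turn phosphorylates a MAP kinase on a threonine and a tyrosine. The main arms end in the ERK, JNK, p38 and ERK5 kinases, which in macrophages carry signals of growth factors, microbial products and stress. DUSP phosphatases remove the phosphates from both residues again, and several of their genes are themselves switched on by the kinases they restrain.

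Of the 72 members, 50 had a mean of at least 1 FPKM over the 6 libraries and were tested. A gene is said to rise or fall with shPGAM5 relative to shDRP1 if it passed an adjusted p of 0.05 in limma fitted on log2(FPKM + 1) over all 10634 genes at that level. Of the tested members, 12 rose, 2 fell and 36 stayed short of the threshold. The 14 calls are 28% of the tested members, and 25.4% of all tested genes were called. By direction, 24% of the members rose against 13.8% of all tested genes, and 4% fell against 11.7%. The median log2 difference, shPGAM5 minus shDRP1, was 0.04 over the members and 0.01 over all tested genes. The median size regardless of sign was 0.099 against 0.105. No value of one group lay within the range of the other in 16 members that were higher and 7 that were lower, which is so for 23.0% and 20.5% of all tested genes.

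**Figure D1:**
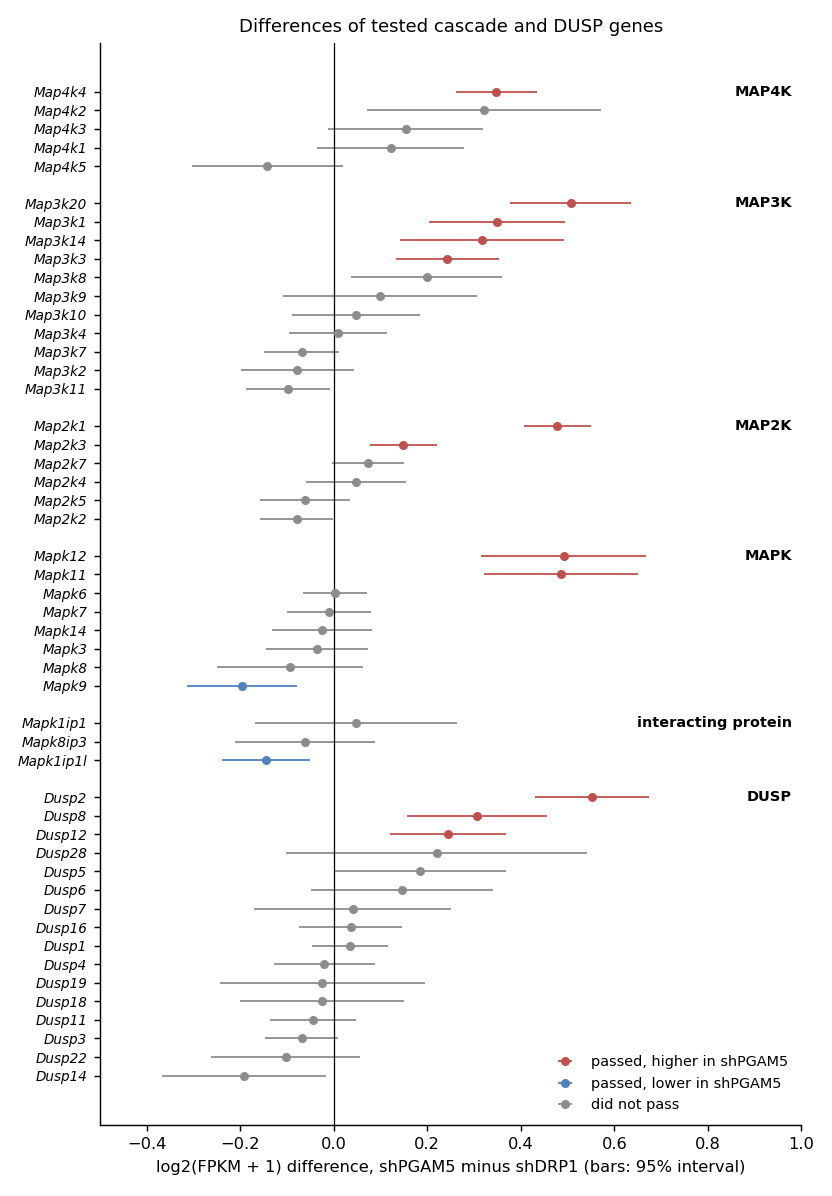
log2(FPKM + 1) difference, shPGAM5 minus shDRP1, of the tested members shown, each with its 95% interval from limma (n = 3 libraries per group), ordered by tier of the cascade. Dusp2 (0.55), Map3k20 (0.51), Mapk12 (0.49), Mapk11 (0.49) and Map2k1 (0.48) lie farthest to the right, and Mapk9 (-0.20) lies farthest to the left.

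**Figure D2:**
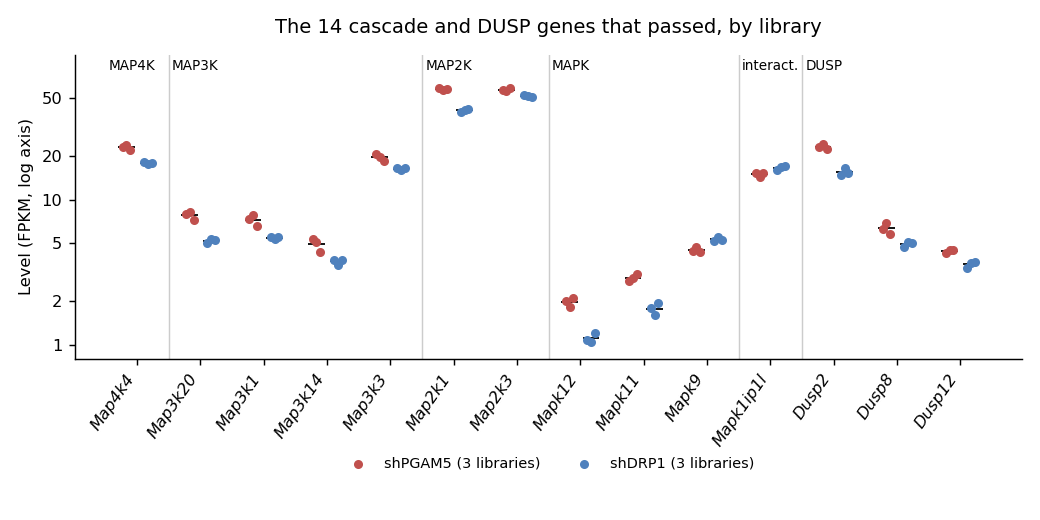
FPKM on a log axis in each library for the 14 members that passed, with 3 shPGAM5 points left of 3 shDRP1 points and the group mean as a line. The groups do not overlap in any of the 14, but these were picked for passing, which favours groups that lie apart. Among all tested genes 43.5% have groups that do not overlap. Map2k3 and Mapk1ip1l show the narrowest gaps relative to their level.

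At the top of the cascade, Map4k4 rose and the other 4 MAP4K genes did not pass, so 20% were called beside 25.4% of all tested genes. Map4k4, a kinase of the STE20 type known for acting upstream of JNK and the most abundant of its tier, was at 23.2, 23.7 and 22.2 FPKM with shPGAM5 and 18.3, 17.6 and 17.8 with shDRP1. All shPGAM5 libraries lay above all shDRP1 libraries, with means of 23.0 ± 0.78 FPKM with shPGAM5 and 17.9 ± 0.35 with shDRP1, a 1.29-fold difference (log2 difference 0.35, SE 0.037). Map4k2 showed 2.14, 1.86 and 1.55 FPKM with shPGAM5 and 1.05, 1.38 and 1.42 with shDRP1 and did not pass. It passed without shPGAM5 library 3 and with voom. Map4k1, which is largely restricted to blood cells, averaged 10.97 ± 0.38 FPKM with shPGAM5 and 10.02 ± 0.96 with shDRP1, with overlapping groups. Map4k3 and Map4k5 differed by 0.15 and -0.14 on the log2 scale and did not pass.

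Among the 17 MAP3K genes 11 were tested, of which 4 rose, 0 fell and 7 did not pass. The share called was 36.4%, beside 25.4% of all tested genes. Map3k20, also called ZAK, a sensor of stalled ribosomes that feeds p38 and JNK, had the largest difference of the tier. Its level was 8.02, 8.25 and 7.26 FPKM with shPGAM5 and 5.06, 5.36 and 5.23 with shDRP1, a 1.5-fold difference (log2 difference 0.51, SE 0.055). The lowest shPGAM5 value was library 3, which still lay above every shDRP1 library.

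Map3k1 encodes MEKK1, a kinase of the JNK arm that also carries a ubiquitin ligase domain. It stood at 7.35, 7.84 and 6.59 FPKM with shPGAM5 and 5.53, 5.35 and 5.55 with shDRP1, 1.33-fold higher (log2 difference 0.35, SE 0.062). Map3k3, known for acting above ERK5, stood at 20.7, 19.7 and 18.4 FPKM with shPGAM5 and 16.5, 16.02 and 16.5 with shDRP1, 1.20-fold higher (log2 difference 0.24, SE 0.047). Averaged over all 6 libraries it was level with Map3k7 at the top of the tier (17.96 and 17.93 FPKM), while with shDRP1 Map3k7 was the more abundant. In Map3k1 and Map3k3 library 3 was the lowest of the shPGAM5 group and the groups did not overlap. Map3k14 encodes NIK, which works in the alternative NF-kB pathway rather than in a MAP kinase arm. It averaged 4.92 ± 0.53 FPKM with shPGAM5 and 3.75 ± 0.18 with shDRP1 (log2 difference 0.32, SE 0.075). Its call was lost without library 1 or 2 of shPGAM5, without any 1 of the shDRP1 libraries and when genes of all levels were fitted, and held in 6 of 12 alternatives.

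Of the 7 MAP3K genes that did not pass, 3 are given with their values and were chosen after these were seen. Map3k7, which encodes TAK1, the kinase below Toll-like and interleukin-1 receptors, was at 17.3, 18.0 and 17.2 FPKM with shPGAM5 and 18.1, 18.7 and 18.3 with shDRP1. Its values did not overlap, and the difference of -0.07 had a 95% interval of -0.15 to 0.01. Map3k8, which encodes TPL2, the kinase that links Toll-like receptors to ERK, was at 4.86, 5.24 and 5.54 FPKM with shPGAM5 and 4.04, 4.78 and 4.42 with shDRP1. The groups lay apart, and the gene passed with voom alone among 12 alternatives. The p38 and JNK activator gene Map3k4 averaged 5.16 ± 0.13 FPKM with shPGAM5 and 5.13 ± 0.12 with shDRP1, and its interval was -0.10 to 0.11.

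In the middle tier, Map2k1 and Map2k3 rose, 4 genes did not pass and Map2k6 was below the filter. The share called was 33.3% of those tested, beside 25.4% of all tested genes. Map2k1 encodes MEK1, one of the pair of kinases that phosphorylate the ERK kinases. Its level was 59.3, 57.5 and 57.9 FPKM with shPGAM5 and 40.6, 41.6 and 42.4 with shDRP1, which rests on 10350 reads with shPGAM5 and 7864 with shDRP1. The means of 58.2 ± 0.93 FPKM with shPGAM5 and 41.5 ± 0.94 with shDRP1 differed 1.40-fold (log2 difference 0.48, SE 0.030), a gap many times the spread within either group. Its partner Map2k2, the gene of MEK2, stood at 28.6, 30.2 and 29.8 FPKM with shPGAM5 and 31.3, 30.7 and 31.7 with shDRP1 and did not pass (95% interval of the log2 difference -0.16 to -0.0011). The ratio of Map2k1 to Map2k2 was 1.97 ± 0.088 with shPGAM5 and 1.33 ± 0.031 with shDRP1, with no overlap. The summed level of both was 87.7 ± 0.11 FPKM with shPGAM5 and 72.8 ± 1.19 with shDRP1.

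Map2k3 encodes MKK3, an activator of p38. By the mean over all 6 libraries it was the most abundant gene of this tier, at 57.5, 56.1 and 58.9 FPKM with shPGAM5 and 52.7, 51.6 and 51.1 with shDRP1. The difference was small, 1.11-fold (log2 difference 0.15, SE 0.030), and the call was lost without shDRP1 library 3, alone among 13 alternatives. Map2k6, the gene of the other p38 activator MKK6, had 4 reads in the shPGAM5 group and 4 in the shDRP1 group. The JNK activator genes Map2k4 (10.7 ± 0.23 FPKM with shPGAM5 and 10.3 ± 0.52 with shDRP1) and Map2k7 (13.7 ± 0.15 with shPGAM5 and 13.01 ± 0.17 with shDRP1) did not pass. For Map2k7, 38.3% of the longest transcript matched another gene at 97% identity or more, so some of its reads may have been lost. Map2k5, the activator of ERK5, differed by -0.06.

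At the end of the cascade Mapk3, Mapk6, Mapk7 and Mapk14 did not pass, while a pair of low p38 genes rose and Mapk9 fell. Mapk3, the gene of ERK1, was at 32.8, 33.1 and 33.8 FPKM with shPGAM5 and 31.8, 35.0 and 35.6 with shDRP1. The groups overlapped, and the interval of its log2 difference was -0.15 to 0.07. Mapk6 (ERK3) and Mapk7 (ERK5) differed by 0.0020 and -0.01, each with overlapping groups.

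Mapk14, the gene of p38 alpha and the most abundant p38 gene, stood at 14.2, 14.7 and 13.3 FPKM with shPGAM5 and 14.1, 14.1 and 14.8 with shDRP1 and did not pass (interval -0.13 to 0.08). Mapk11, the gene of p38 beta, was at 2.73, 2.86 and 3.05 FPKM with shPGAM5 and 1.78, 1.61 and 1.93 with shDRP1, a 1.62-fold difference (log2 difference 0.49, SE 0.070). Mapk12, the gene of p38 gamma, was at 2.01, 1.80 and 2.08 FPKM with shPGAM5 and 1.08, 1.04 and 1.21 with shDRP1, 1.77-fold higher (log2 difference 0.49, SE 0.075). Both genes were higher in every shPGAM5 library than in any shDRP1 library, in levels well below that of Mapk14. Behind Mapk11 lay 436 reads with shPGAM5 and 287 with shDRP1. For Mapk12 they were 393 with shPGAM5 and 237 with shDRP1. The added 1 in the logarithm understates differences at such levels. Together they made up 25.4% ± 2.05 of the summed p38 transcripts with shPGAM5 and 16.6% ± 0.84 with shDRP1. Mapk13, the gene of p38 delta, had 25 reads with shPGAM5 and 17 with shDRP1.

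**Figure D3:**
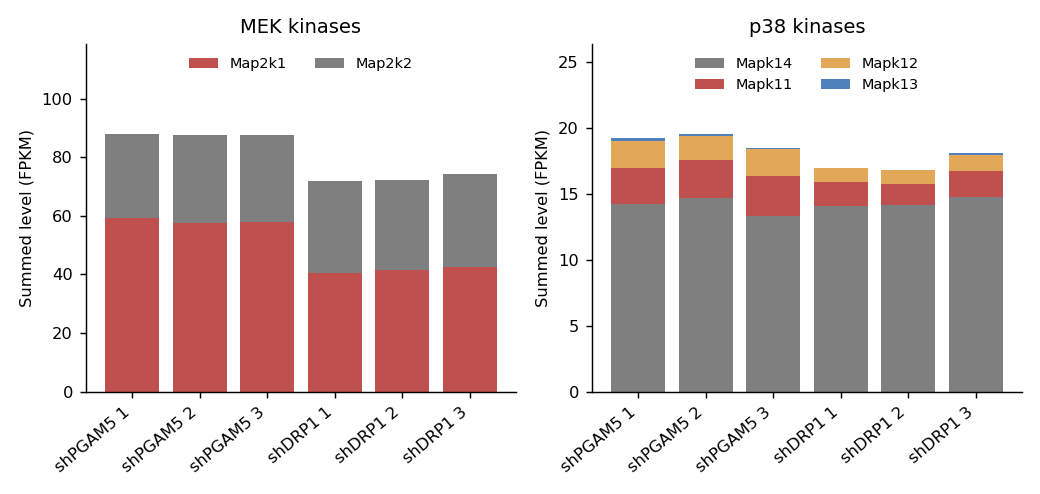
Summed FPKM in each library, stacked by gene, for the MEK genes (left) and the p38 genes (right). The MEK sum is higher in the 3 shPGAM5 libraries through Map2k1, and in the p38 sum the Mapk11 and Mapk12 layers are thicker with shPGAM5 while the Mapk14 layer is of similar height in all 6.

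Mapk12 and Mapk11 are neighbours on chromosome 15 (mm10), both on the minus strand, at 89130584 to 89140703 and 89142486 to 89149628 with 1782 bases between them. The genes on either side did not pass. Hdac10, a deacetylase gene, averaged 4.10 ± 0.40 FPKM with shPGAM5 and 4.32 ± 0.15 with shDRP1. Plxnb2, a semaphorin receptor gene, averaged 63.6 ± 4.42 FPKM with shPGAM5 and 59.8 ± 0.25 with shDRP1 with overlapping groups, and passed only without shPGAM5 library 3 among 13 alternatives. The remaining called members lay on 7 other chromosomes, with 4 of them, Map2k3, Map3k3, Map3k14 and Mapk9, on chromosome 11.

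The 250 bases before the annotated start of 4 members that rose are shown because these members had the largest differences at the MAP2K, MAPK and DUSP levels. The sequences are from RefSeq (GRCm38.p6, the build of mm10), which held a start for 54 of the 72 members. Capitals mark CACGTG, which holds on both strands the letters ACGTG, the core of the element bound by hypoxia-inducible factors. Motifs were searched on both strands.
Mapk11 (chr15:89149607-89149856, minus strand): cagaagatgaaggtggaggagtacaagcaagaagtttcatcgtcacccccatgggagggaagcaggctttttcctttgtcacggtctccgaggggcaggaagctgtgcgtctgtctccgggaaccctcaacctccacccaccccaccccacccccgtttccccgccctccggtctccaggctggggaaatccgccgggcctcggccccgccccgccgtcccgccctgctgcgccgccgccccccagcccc
Mapk12 (chr15:89140704-89140953, minus strand): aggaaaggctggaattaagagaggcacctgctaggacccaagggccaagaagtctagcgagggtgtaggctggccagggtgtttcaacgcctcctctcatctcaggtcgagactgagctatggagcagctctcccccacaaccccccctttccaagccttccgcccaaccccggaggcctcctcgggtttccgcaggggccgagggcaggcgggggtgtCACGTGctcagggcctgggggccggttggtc
Map2k1 (chr9:64253606-64253855, minus strand): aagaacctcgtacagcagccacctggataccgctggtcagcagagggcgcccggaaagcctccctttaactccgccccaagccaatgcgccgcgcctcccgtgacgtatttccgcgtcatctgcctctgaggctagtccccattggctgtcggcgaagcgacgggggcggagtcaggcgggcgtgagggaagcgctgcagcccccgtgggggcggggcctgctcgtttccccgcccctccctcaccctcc
Dusp2 (chr2:127335909-127336158, plus strand): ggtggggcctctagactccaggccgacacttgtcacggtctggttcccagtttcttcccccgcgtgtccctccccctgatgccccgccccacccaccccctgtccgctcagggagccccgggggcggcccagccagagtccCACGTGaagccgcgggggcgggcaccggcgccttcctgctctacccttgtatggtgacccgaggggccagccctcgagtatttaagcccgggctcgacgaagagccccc
The windows are rich in G and C, at 64.4% to 70.4% against a median of 52.4% over all 32851 RefSeq windows of this length. CACGTG stands once before Mapk12 and once before Dusp2. A gene can have several starts, so the 12 windows of members that rose belong to 11 genes and the 36 windows of members that did not pass to 29. ACGTG was found in 2 of the 12 windows of the members that rose, in 9 of the 36 of those that did not pass and in 16.6% of all windows. The AP-1 letters TGANTCA were in 0 of the 12, in 2 of the 36 and in 6.75% of all, and the cyclic AMP element TGACGTCA in 1, 1 and 1.55%. The GC box GGGCGG was in 8 of the 12, 23 of the 36 and 32.7% of all. ACGTG is contained in none of the other motifs, and a match describes the letters and no binding.

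Of the JNK genes, Mapk9 (JNK2) fell and Mapk8 (JNK1) did not pass. Mapk9 was at 4.45, 4.74 and 4.39 FPKM with shPGAM5 and 5.19, 5.53 and 5.26 with shDRP1 (log2 difference -0.20, SE 0.050). Its call was lost without library 1 or 3 of shPGAM5, without any 1 of the shDRP1 libraries and when genes of all levels were fitted. Mapk8 averaged 3.72 ± 0.22 FPKM with shPGAM5 and 4.04 ± 0.32 with shDRP1 with overlapping groups. The brain form Mapk10 (JNK3) had 3 reads with shPGAM5 and 1 with shDRP1. Summed JNK transcripts were 7.94, 8.53 and 8.29 FPKM with shPGAM5 and 9.22, 9.90 and 8.99 with shDRP1.

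Members that bind MAP kinases or carry a MAP kinase name without being kinases were few. Mapk1ip1l, a small proline-rich protein gene of this kind, fell at 15.3, 14.4 and 15.3 FPKM with shPGAM5 and 16.1, 16.8 and 16.98 with shDRP1 (log2 difference -0.14, SE 0.040). The call held in 5 of 13 alternatives. It was lost on leaving out any 1 library except shPGAM5 library 3, with a replicate block, with no trend and with no filter. Mapk8ip3, the gene of the JNK scaffold JIP3, averaged 2.75 ± 0.19 FPKM with shPGAM5 and 2.91 ± 0.14 with shDRP1 and did not pass. The scaffold genes Mapk8ip1 and Mapk8ip2 were below the filter.

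Among the 24 DUSP genes 16 were tested, of which 3 rose, 0 fell and 13 did not pass. The share called was 18.75%, below the 25.4% of all tested genes. Dusp4, also called MKP-2, a nuclear phosphatase of ERK and JNK, dominated the family. It was at 339, 331 and 301 FPKM with shPGAM5 and 332, 325 and 326 with shDRP1, and was the 1 member above 100 FPKM. It made up 65.7% ± 0.85 of the summed DUSP level with shPGAM5 and 67.3% ± 0.20 with shDRP1. The groups did not overlap in this share. In the level of Dusp4 itself they overlapped, with the lowest value in shPGAM5 library 3, and the interval of its log2 difference was -0.13 to 0.09.

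Dusp2, also called PAC-1, a nuclear phosphatase of activated immune cells, had the largest log2(FPKM + 1) difference of the tested members. It was at 23.1, 24.3 and 22.2 FPKM with shPGAM5 and 14.8, 16.5 and 15.2 with shDRP1, a 1.5-fold difference (log2 difference 0.55, SE 0.052). Among the 10634 tested genes this log2(FPKM + 1) difference ranked 341 by size. By the ratio of group means, shPGAM5 over shDRP1, Dusp2 (1.496) lay below Mapk12 (1.77), Mapk11 (1.62) and Map3k20 (1.503) among the tested members. The other nuclear phosphatases did not pass. Dusp1 (MKP-1), the phosphatase that ends p38 signalling after Toll-like receptor stimulation, was at 17.6, 18.5 and 17.7 FPKM with shPGAM5 and 17.7, 17.5 and 17.2 with shDRP1, with an interval of -0.05 to 0.12. Dusp5, specific for ERK, was at 11.9, 11.9 and 10.8 FPKM with shPGAM5 and 10.7, 8.80 and 10.6 with shDRP1. Its groups lay apart by a narrow margin and it passed in 0 of 13 alternatives.

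Dusp8, a phosphatase of JNK and p38, rose with 6.30, 6.89 and 5.83 FPKM with shPGAM5 and 4.69, 5.09 and 5.02 with shDRP1 (1.29-fold, log2 difference 0.31, SE 0.064). Dusp16, of the same subgroup, averaged 8.88 ± 0.39 FPKM with shPGAM5 and 8.64 ± 0.30 with shDRP1 and did not pass. The cytoplasmic ERK phosphatases Dusp6 (4.72 ± 0.62 FPKM with shPGAM5 and 4.16 ± 0.23 with shDRP1) and Dusp7 (6.28 ± 0.79 with shPGAM5 and 6.07 ± 0.51 with shDRP1) did not pass, with intervals of -0.05 to 0.34 and -0.17 to 0.25. For Dusp6 the shPGAM5 values were 4.30, 5.44 and 4.43 FPKM and the shDRP1 values 4.18, 3.92 and 4.37, so the groups overlapped and library 2 of shPGAM5 stood highest.

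Of the atypical DUSP genes, which lack the domain that docks MAP kinases, 8 were tested and Dusp12 alone passed. That is 12.5%, beside 25.4% of all tested genes. Dusp12 was at 4.27, 4.47 and 4.50 FPKM with shPGAM5 and 3.37, 3.65 and 3.69 with shDRP1 (log2 difference 0.24, SE 0.053), and the call was lost without shDRP1 library 1, alone among 12 alternatives. Exons of other genes on the opposite strand cover 49.8% of its exonic length, and since no source used here gives the strand setting, reads of both cannot be told apart. Dusp3 (VHR), the most abundant atypical member, was at 45.4 ± 1.60 FPKM with shPGAM5 and 47.7 ± 0.30 with shDRP1, and Dusp11, which acts on RNA ends, at 24.2 ± 1.12 with shPGAM5 and 24.97 ± 0.13 with shDRP1. Dusp14, with 1.17 ± 0.10 FPKM with shPGAM5 and 1.48 ± 0.083 with shDRP1, passed in 1 of 12 alternatives, that with no mean-variance trend. Without Dusp4 the summed DUSP level was 168 ± 6.97 FPKM with shPGAM5 and 159 ± 0.72 with shDRP1.

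**Figure D4:**
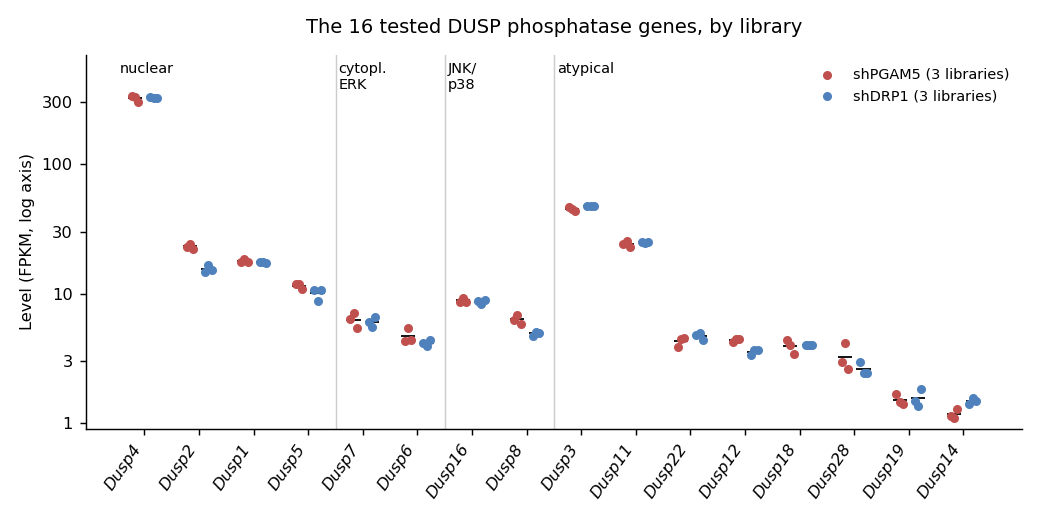
FPKM on a log axis in each library for the 16 tested DUSP genes by subgroup, with 3 shPGAM5 points left of 3 shDRP1 points and the group mean as a line. Dusp4 stands far above the rest at 301 to 339 FPKM. In Dusp2, Dusp5, Dusp8 and Dusp12 all shPGAM5 points lie above all shDRP1 points, and in Dusp3 and Dusp14 all lie below. Groups do not overlap in 43.5% of all tested genes.

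The 22 members below the filter had means from 0 to 0.83 FPKM over the 6 libraries, with 1.12 FPKM as the highest single value. Of these 6 had no read in any library, namely Dusp21, Dusp26, Map3k21, Map3k7cl, Mapk4 and Mapk8ip2, and 3 reads in the shallowest library would be at most 0.22 FPKM for any of them. Dusp23 was the highest below the filter (0.69 FPKM with shPGAM5 and 0.98 with shDRP1) and Map3k9 the lowest above it (1.13 FPKM with shPGAM5 and 0.99 with shDRP1). Dusp10 (MKP-5), a phosphatase of JNK and p38, had 43 reads with shPGAM5 and 70 with shDRP1. Dusp9 had 0 with shPGAM5 and 5 with shDRP1. None of the 22 passed when limma was fitted with no filter.

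Genes of the pathway outside the family were taken from 6 lists written from textbook knowledge with earlier results of these data known. Of 64 listed genes 63 were found and 51 were tested, with 18 that rose and 4 that fell. These are 35.3% and 7.84% of the tested list genes, beside 13.8% and 11.7% of all tested genes, and since the lists were written with results known, nothing particular to them is read from the shares. Their differences bear on the same libraries and are not independent of those above, and no p is given for a list gene.

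Of 9 listed transcripts known to follow ERK activity 7 were tested, of which 6 rose and Egr1 fell, beside 13.8% and 11.7% of all tested genes. The list was written with earlier results known, and its count describes these genes alone. The stress-response gene Ier3 was at 322, 303 and 327 FPKM with shPGAM5 and 170, 168 and 167 with shDRP1, a 1.88-fold difference (log2 difference 0.91, SE 0.035). The receptor kinase gene Epha2 was at 2.60, 2.65 and 2.29 FPKM with shPGAM5 and 1.248, 1.02 and 0.975 with shDRP1 (log2 difference 0.76). Egr1, an immediate early transcription factor, was at 1.52, 1.69 and 2.07 FPKM with shPGAM5 and 4.01, 3.76 and 3.87 with shDRP1 (log2 difference -0.83). The groups did not overlap in any of the 7 tested genes of the list, which is so for 43.5% of all tested genes. Phlda1 (2.05 ± 0.36 FPKM with shPGAM5 and 1.08 ± 0.13 with shDRP1), the AP-1 gene Fosl1 (35.6 ± 0.53 with shPGAM5 and 28.6 ± 1.10 with shDRP1) and Etv5 (5.07 ± 0.39 with shPGAM5 and 4.02 ± 0.28 with shDRP1) rose as well, and so did the cyclin gene Ccnd1 (37.99 ± 1.55 with shPGAM5 and 33.8 ± 1.83 with shDRP1). The calls of Etv5 and Ccnd1 held in 7 of 12 and 5 of 13 alternatives, and neither held without library 1 of shPGAM5 or without library 1 or 2 of shDRP1. Etv5 also lost its call without shPGAM5 library 3, and Ccnd1 without shPGAM5 library 2. Near-identical stretches in 1 other gene each covered 62.5% of the longest Fosl1 transcript, 42.8% of that of Etv5 and 37.4% of that of Phlda1. The search also counted genes that overlap at the same place, so such a match can be the overlapping gene itself. No exons of another gene overlap those of Etv5. Exons on the opposite strand cover 57.2% of the exonic length of Fosl1, 33.0% of that of Phlda1 and 23.4% of that of Ccnd1, so reads of both strands cannot be told apart there. Epha4 was at 0 in every library, and Etv4 had 54 reads with shPGAM5 and 20 with shDRP1.

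The feedback inhibitors of the ERK arm rose in 3 of 4 tested genes and 0 fell, beside 13.8% and 11.7% of all tested genes. As that list was also written with earlier results known, the count describes these genes alone. Spred1, which holds RAS off by bringing neurofibromin to the membrane, was at 35.5, 35.9 and 35.2 FPKM with shPGAM5 and 27.1, 26.7 and 26.6 with shDRP1 (1.33-fold, log2 difference 0.39, SE 0.028). Spred3 was at 3.55, 3.60 and 3.59 FPKM with shPGAM5 and 2.03, 1.98 and 1.75 with shDRP1, 1.87-fold higher, and the Sprouty gene Spry2 at 7.91 ± 0.77 FPKM with shPGAM5 and 5.74 ± 0.30 with shDRP1. In all 4 tested genes, Spred2 included, every shPGAM5 library lay above every shDRP1 library, which is so for 23.0% of all tested genes. Spred2 (15.3 ± 1.01 FPKM with shPGAM5 and 13.5 ± 0.42 with shDRP1) did not pass. It passed in 3 of 13 alternatives, among these without shPGAM5 library 3.

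**Figure D5:**
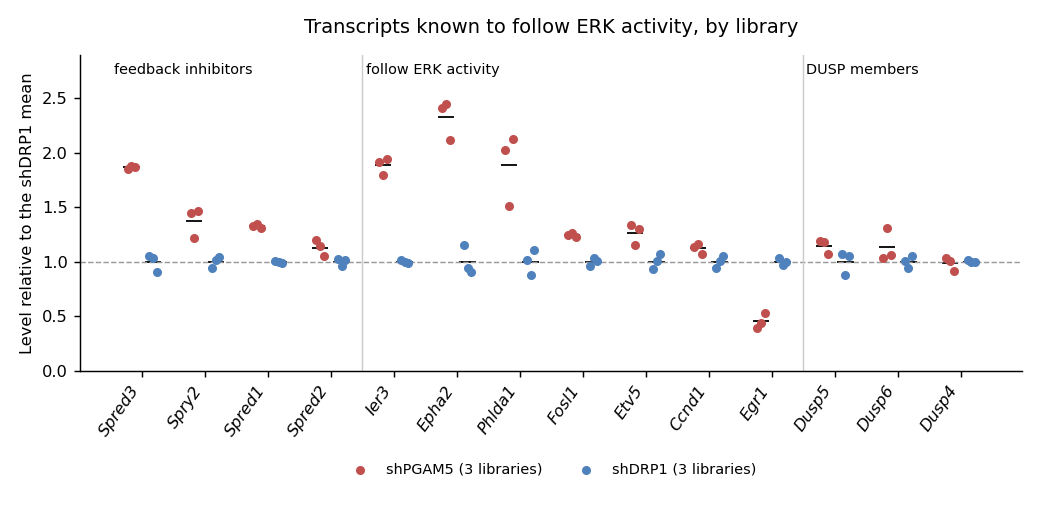
Level in each library divided by the shDRP1 mean of the gene, for the tested feedback inhibitors, the transcripts known to follow ERK activity, and Dusp5, Dusp6 and Dusp4, with 3 shPGAM5 points left of 3 shDRP1 points and the group mean as a line. The shPGAM5 means lie at 2.33 for Epha2, 1.89 for Phlda1, 1.88 for Ier3, 1.87 for Spred3 and 0.45 for Egr1, and at 1.15, 1.14 and 0.99 for Dusp5, Dusp6 and Dusp4.

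At the entry to the cascade, 3 of 14 tested genes of the RAS and RAF list rose and 1 fell. The share called was 28.6%, beside 25.4% of all tested genes. Nras was at 27.1 ± 0.41 FPKM with shPGAM5 and 23.3 ± 0.81 with shDRP1 (log2 difference 0.21, SE 0.036). The calls of Rras (0.24) and Rras2 (0.15) passed in 6 and 4 of 13 alternatives, and that of the exchange factor gene Sos2 (-0.18) was lost without any 1 of the shDRP1 libraries. Araf and Braf, genes of kinases that RAS activates, did not pass, with log2 differences of -0.11 and 0.05. Araf passed with quantile normalization and with voom.

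Among kinases that MAP kinases activate, 1 of 8 passed, which is 12.5% beside 25.4% of all tested genes. Mapkapk2, the gene of the p38 target MK2, which stabilises cytokine transcripts, was at 180 ± 0.80 FPKM with shPGAM5 and 153 ± 1.46 with shDRP1 (1.18-fold, log2 difference 0.23, SE 0.024). Of 12 MAP3K partners and scaffolds 2 rose and 2 fell, so 33.3% were called beside 25.4% of all tested genes. Gadd45b, whose protein binds the kinase encoded by Map3k4, was at 36.8, 36.0 and 37.97 FPKM with shPGAM5 and 24.1, 22.3 and 22.2 with shDRP1 (1.62-fold, log2 difference 0.67, SE 0.042). Its relative Gadd45g rose at 1.68 ± 0.33 FPKM with shPGAM5 and 0.95 ± 0.0945 with shDRP1, on 104 reads with shPGAM5 and 62 with shDRP1, and lost the call without shDRP1 library 1 or 3 and without the filter. Traf6, the ubiquitin ligase above TAK1, was at 5.59 ± 0.50 FPKM with shPGAM5 and 6.78 ± 0.33 with shDRP1 (-0.24), and Tab2, a TAK1 partner, at 33.2 ± 0.96 with shPGAM5 and 36.0 ± 0.53 with shDRP1 (-0.11). Both calls were lost on leaving out any 1 shDRP1 library, that of Traf6 also without shPGAM5 library 1 and that of Tab2 also without shPGAM5 library 2 or 3. Of 6 other phosphatase genes that act on MAP kinases, Ppp2ca (0.17), Ppp2cb (0.22) and Ptpn7 (0.11) rose and 3 did not pass. The share called was 50%, beside 25.4% of all tested genes, in a list written with results known. Ppp2cb and Ptpn7 passed in 4 and 5 of 13 alternatives. For Ppp2ca, exons on the opposite strand cover 41.3% of the exonic length. Near-identical stretches in 11 other genes covered 45.8% of its longest transcript.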

How the data were processed

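Messenger RNA captured on poly-T beads was sequenced, per the labels' protocols, from 3 shPGAM5 and 3 shDRP1 samples. The authors deposited 1 FPKM value per gene and library. HISAT2 2.0.5, featureCounts 1.5.0-p3 and mouse build mm10 are named, per the submitters' processing notes. No source used here gives the annotation release, the FPKM formula or the strand setting. Since FPKM is scaled to the library total, a few very abundant genes can depress the rest, and reads shared by similar genes can be lost.

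Symbols and lengths came from GENCODE M21, which matched 54409 of 54532 identifiers. Multiplied by exonic length and a single depth for each library, 94.3% to 96.1% of the values above 0 came within 0.02 of whole reads, which gave the depths and reads. Read counts cover counting error only.

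Genes with a mean of at least 1 FPKM were fitted on log2(FPKM + 1) in limma 3.58.1 (R 4.3.3) with a mean-variance trend and Benjamini-Hochberg adjustment over all 10634. The fit was also run on simulated data with the same fixed spread in every library and far fewer changed genes than were called here. That run therefore does not vouch for the calls in these libraries. Overlaps used bedtools 2.31.1 and near-identical transcripts blastn 2.17.0 (97% identity, 100 bases). Named genes were the targets, the classical MAP2K and MAPK genes, up to 6 called members per tier with the largest differences, the most abundant of each tier, and up to 3 called genes per list. Others were chosen after their values were seen. Members and lists were chosen with earlier results of these data known. The alternatives were a pseudocount of 0.1, no filter, a filter of 5 FPKM, quantile normalization, voom on the recovered reads, no trend, the replicate block and leaving out each library. Values of some single genes are not reported here.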

Additional observations from a re-analysis of the deposited data

How the results depend on the processing

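The count of members that rose was 12 and ranged from 8 to 14 over 13 alternatives, the 8 coming from the filter at 5 FPKM, under which fewer members were tested. The count that fell was 2 and did not hold, with 0 without the expression filter, 1 with the 5 FPKM filter, 1 with the replicate block and 0 to 1 when a library was left out. Over all genes, leaving out a library gave 971 to 1458 that rose and 825 to 1280 that fell, against 1464 and 1240. In the pathway lists, 18 rose and 4 fell, against 11 to 15 and 1 to 3 without 1 library and 2 that fell without the filter. Of 632 pairs of a tested member and an alternative, 606 kept their side of the threshold, 22 lost a call, 4 gained one and 0 reversed. For pathway genes 582 of 652 kept their side, 65 lost a call, 5 gained one and 0 reversed. Only the 14 of 50 tested members and the 22 of 51 tested list genes that passed could lose a call. The lost calls thus fall on a part of these pairs, and their share of all pairs understates how often a call was lost. The cause of a lost call was not tested, other than that leaving out a library leaves fewer samples. The difference in summed DUSP level, 4.99 FPKM, ranged from -3.35 to 20.1 without 1 library, that of the MAPK sum, -0.81, from -2.75 to 0.23, and that of their ratio, 0.056, from -0.020 to 0.17, so none has a settled sign. No p is given for these sums. Quantile normalization moved the median of all genes by -0.0042.

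The values show no sign that the numbers 1 to 3 pair the libraries. Deviations of same-numbered libraries correlated at -0.00034 to 0.031 over genes, and those of other numbers at -0.068 to 0.041. Not every library correlated best with its own number. With 3 libraries per group, such weak correlations cannot show if same-numbered libraries were made together. With the replicate block 1161 genes rose and 972 fell, and 12 members rose and 1 fell. Among the calls, depth limits Gadd45g most, with 104 reads with shPGAM5 and 62 with shDRP1, and among the members Mapk12, with 393 with shPGAM5 and 237 with shDRP1.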
